A study of Homo sapiens with 4 samples.

Results

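RNA bound by the J2 antibody was set against total RNA of the same cells after a pulse of an MPS1 kinase inhibitor. The comparison takes 2 of the 4 libraries of the series, the MPS1i J2 library and the MPS1i Input library, and was chosen by the labels, not by any measured value. Both came from NCI-H1944, an established human lung adenocarcinoma line labelled as wild type, treated with 100 nM of the MPS1 inhibitor BAY-1217389 for 48 h and then grown without it for 24 h. The J2 library was made from RNA pulled down with the antibody from the lysate, and the Input library from 10% of the lysate kept aside before the pull-down. DMSO J2 and DMSO Input, from vehicle-treated cells taken through the same times, are given beside them as the background. With 1 library in each group, differences cannot be checked against replicates, and no p-value is given.

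J2 is a monoclonal antibody that binds double-stranded RNA along its backbone, whatever its sequence, and it is used to pull down long RNA duplexes. In human cells such duplexes form mostly where a transcript carries copies of a repeat in opposite orientations, above all Alu elements, the most numerous short repeats of primate genomes, or where both strands of a locus are transcribed. Cytosolic sensors such as MDA5, RIG-I and PKR bind double-stranded RNA, and the editing enzyme ADAR1 changes adenosines in Alu duplexes so that fewer of them are bound. MPS1, encoded by TTK, is the kinase that drives the spindle assembly checkpoint, and its inhibition lets cells leave mitosis with missegregated chromosomes.

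The deposited values are raw read counts per stranded stretch of genome (a region), in 1 table for the J2 libraries with 3814162 regions and 1 for the Input libraries with 2310971 regions. Median region lengths were 120 and 128 bp. With mitochondrial rows left out, 6641507 reads remained in MPS1i J2 and 3865362 in MPS1i Input, against 9733782 in DMSO J2 and 4829313 in DMSO Input. Mitochondrial rows held 0.836% of the reads of MPS1i J2 and 20.2% of those of MPS1i Input, against 0.608% and 24.3% in DMSO J2 and DMSO Input, and how they are treated moves every ratio below. Nuclear regions with a read numbered 1176720 in MPS1i J2, 484838 in MPS1i Input, 1208558 in DMSO J2 and 940740 in DMSO Input. Of the reads, 62.0% in MPS1i J2 and 55.2% in MPS1i Input lay in regions whose opposite strand also held a read, against 70.3% in DMSO J2 and 69.0% in DMSO Input. In bulk RNA, fewer cells that contain a transcript and less of it per cell cannot be told apart.

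A value below is a log2 ratio, the share of nuclear reads in J2 over the share in Input, computed with 0.5 added to each count. A value written as a fold is the ratio of the shares with nothing added. An item was measured when both libraries together held at least 50 reads, and it was called higher or lower in J2 at a ratio of 2-fold or more whose exact 95% counting interval (Clopper-Pearson) left out equality. Keeping mitochondrial reads in the totals moved the median gene up by 0.31, so values between −0.31 and 0 turn sign under that choice. These intervals cover counting error only, and reads copied by PCR are counted as separate reads. Gene names are those of the nearest transcription start, so that a gene's value sums its introns, its flanks and the strand opposite to it. The 11 lung epithelium markers fixed for the line all had a read. Of these, 7 reached 50 reads: KRT8, a simple-epithelium keratin, had 351 reads in MPS1i J2 and 4154 in MPS1i Input, and SFTPB, a surfactant protein gene, had 61 and 37. NKX2-1, the lung lineage factor, had 3 reads in MPS1i J2 and 0 in MPS1i Input, and EPCAM had 6 and 1. The label therefore rests here on the keratins, CEACAM6, MUC1, CDH1 and, with few reads, SFTPB. The leukocyte markers CD14 and LYZ, given below, had read numbers like those of SFTPB. Reads at that level therefore do not tell cell types apart.

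Wide ratios were far more frequent at annotated exons than away from them, and that bears on the sums below. How the regions were defined is not given, and its part in this was not tested. Among 22502 loci made by merging overlapping regions of both tables on the same strand, the share with a ratio beyond 32-fold in either direction was 42.4% where the locus overlapped a same-strand GENCODE exon and 15.2% where it began 1 base away. It was 4.63% at 2 to 20 bases, 0.859% at 21 to 200 bases, 0.782% from there up to 1000 bases and 0.676% beyond 1000 bases. Matched regions that touched an exon only in the J2 table had a median log2 ratio of 0.82 (275 regions), and those that touched one only in the Input table −1.31 (163 regions). Regions within 20 bases of an exon held 24.0% of the reads of MPS1i J2 and 26.6% of those of MPS1i Input. The main results are therefore given in both ways, as deposited and without loci within 20 bases of a same-strand exon (exon-clear below). In the exon-clear reading each locus also carries 1 gene name in both tables. This second reading was chosen after the data were seen.

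**Figure D1:**
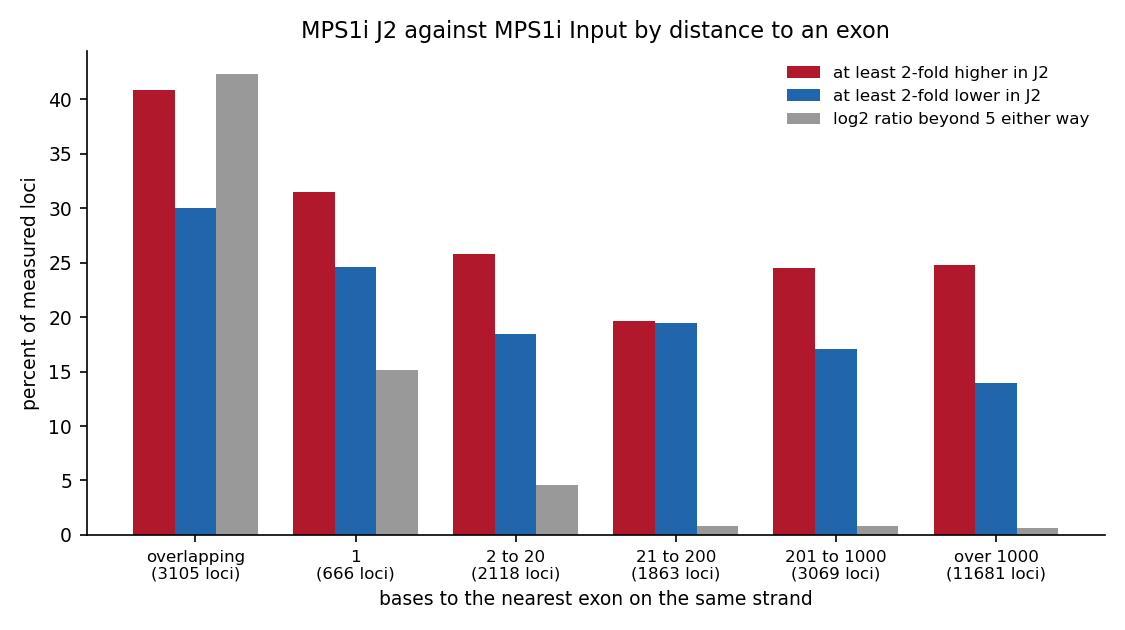
Percent of merged loci (y axis) called higher or lower in MPS1i J2 than MPS1i Input, or with a ratio beyond 32-fold, by the distance in bases to the nearest exon on the same strand (x axis). The share beyond 32-fold is 42.4% for loci overlapping an exon and under 1% for loci more than 20 bases away.

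Some of the called loci that also have a sequence in GENCODE release 29 (GRCh38) are shown here as the strand that was read. Each lies wholly or partly inside an exon of a noncoding transcript on the opposite strand. They are not a ranking by ratio. The first 3 were higher in MPS1i J2 and are AT-rich, and the next 2 were lower in it and are GC-rich. Capitals mark both arms of the longest perfect inverted repeat inside the printed window.
Opposite AC103591.4 near DNAJB4, chr1:78022905-78023204, plus strand: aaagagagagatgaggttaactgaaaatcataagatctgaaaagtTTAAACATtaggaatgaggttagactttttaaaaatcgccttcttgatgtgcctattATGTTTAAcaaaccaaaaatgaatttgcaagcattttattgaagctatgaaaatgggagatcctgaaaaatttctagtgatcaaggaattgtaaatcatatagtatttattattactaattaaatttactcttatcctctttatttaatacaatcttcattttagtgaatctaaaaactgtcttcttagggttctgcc
Opposite POLH-AS1, chr6:43590951-43591250, plus strand: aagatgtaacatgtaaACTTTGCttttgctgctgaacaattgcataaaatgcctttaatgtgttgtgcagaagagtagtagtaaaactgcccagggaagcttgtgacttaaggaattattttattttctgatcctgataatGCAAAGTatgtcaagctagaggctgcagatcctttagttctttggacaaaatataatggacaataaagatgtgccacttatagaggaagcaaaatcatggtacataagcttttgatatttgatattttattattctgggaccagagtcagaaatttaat
Opposite AC138305.3 near CDH8, chr16:63397719-63397912, minus strand: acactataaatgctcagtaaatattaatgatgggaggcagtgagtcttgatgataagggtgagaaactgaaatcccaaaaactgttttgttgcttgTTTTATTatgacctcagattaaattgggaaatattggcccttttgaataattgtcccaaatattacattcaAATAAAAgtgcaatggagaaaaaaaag
Opposite RN7SK, chr6:52995649-52995948, minus strand: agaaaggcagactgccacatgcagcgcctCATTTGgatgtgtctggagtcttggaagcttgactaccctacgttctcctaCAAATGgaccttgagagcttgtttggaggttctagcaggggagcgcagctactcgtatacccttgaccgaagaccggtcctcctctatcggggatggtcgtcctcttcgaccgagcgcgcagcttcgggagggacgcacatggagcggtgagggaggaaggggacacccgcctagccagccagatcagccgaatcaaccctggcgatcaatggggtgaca
Opposite RPPH1, chr14:20343070-20343369, plus strand: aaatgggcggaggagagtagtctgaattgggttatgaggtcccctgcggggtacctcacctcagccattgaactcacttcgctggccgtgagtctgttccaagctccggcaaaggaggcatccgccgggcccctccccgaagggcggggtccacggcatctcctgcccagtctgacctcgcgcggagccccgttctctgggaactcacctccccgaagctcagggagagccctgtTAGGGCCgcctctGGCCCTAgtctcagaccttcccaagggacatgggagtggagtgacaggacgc

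The locus near DNAJB4 had 70 reads in MPS1i J2 and 3 in MPS1i Input, against 65 in DMSO J2 and 24 in DMSO Input. The POLH-AS1 locus had 80 and 16 reads in MPS1i J2 and MPS1i Input, and the CDH8 locus 53 and 11. The locus opposite RN7SK, the RNA that holds the elongation factor P-TEFb inactive, had 36 reads in MPS1i J2 and 1670 in MPS1i Input. The locus opposite RPPH1, the RNA of ribonuclease P, had 6 and 336. GC content was 28.0%, 33.7% and 32.0% in the windows of the J2-high loci and 58.0% and 63.7% in those of the J2-low loci. The arms of the inverted repeats were 8, 7 and 7 bases long in the printed J2-high windows and 6 and 7 bases in the J2-low windows. Other J2-high loci were not printed. They include a locus near LOC101928053 (311 and 41 reads in MPS1i J2 and MPS1i Input, log2 ratio 2.13, arms of 8 bases). A second locus near DNAJB4 had 215 and 33 reads (1.90, arms of 9 bases). Arm lengths were therefore not compared between the groups. Over all 274 exon-clear loci lying wholly inside an exon of the opposite strand, the median GC content was 38.7% in the 67 loci called higher in MPS1i J2 and 52.6% in the 50 called lower. It was 44.5% in the 157 loci not called. Of all 16613 exon-clear loci measured, 24.2% were called higher and 15.1% lower.

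By annotation class, reads of MPS1i J2 leaned to transcript ends and to sequence between genes, and away from the promoter and exon classes. A region on the strand opposite to an exon can also fall in the exon class. Of the reads of that class, 37997 of 47562 in MPS1i J2 and 31710 of 40755 in MPS1i Input were exon-clear. Its ratio is therefore not one of exonic RNA. Transcript end regions (TTS) held 5.28% of nuclear reads in MPS1i J2 and 4.14% in MPS1i Input, a log2 ratio of 0.35 (95% counting interval 0.34 to 0.36). Intergenic regions held 32.6% and 27.7% (0.23). Promoter regions held 2.04% in MPS1i J2 and 3.39% in MPS1i Input (−0.73, −0.75 to −0.72). The 5' UTR class stood at −0.68 and the exon class at −0.56. These and promoters kept their sign under each of the alternative scalings tried. Introns held 56.8% of reads in MPS1i J2 and 61.1% in MPS1i Input (−0.11), a sign that turned when mitochondrial reads stayed in the totals or DESeq2 or upper-quartile factors were used. The 3' UTR class (0.08, and −0.00 exon-clear) and non-coding exons (0.02) were near 0. No class reached 2-fold.

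The order of the classes held in the exon-clear reading at its ends. TTS stood at 0.18, intergenic regions at 0.16, the exon class at −0.57, the 5' UTR class at −0.86 and promoters at −0.93. In DMSO cells the same classes stood at 0.33, 0.36, −0.96, −0.71 and −0.85, as deposited. The J2 table covers more sequence than the Input table, 242699.6 kb against 134079.6 kb of intergenic regions and 842399.6 kb against 711016.5 kb of introns. Per kilobase covered, every class stood below 0, from −0.04 for 3' UTR and −0.05 for TTS down to −0.90 for promoters and −1.03 for the 5' UTR class. Intergenic regions stood at −0.62. The J2 table covers more sequence in every class, which lowers each of these values. They are therefore to be read against each other and not against 0.

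Strand relative to genes gave smaller differences. Regions outside any gene stood at 0.13 in MPS1i cells (0.23 in DMSO cells), regions on the sense strand of a gene at −0.00 (0.03), and regions on the antisense strand at −0.19 (−0.50). Antisense regions held 14.4% of nuclear reads in MPS1i J2 and 16.5% in MPS1i Input. The exon-clear loci that overlap an exon on the opposite strand showed the same lean, with a median of −0.11 over 4174 loci against 0.37 over 12439 loci that overlap none. These loci are long, at a median of 18214.5 bp against 924 bp, and among loci of up to 2000 bp the medians were 0.24 (778 loci) and 0.35 (11391 loci). Among chromosomes, the ratio was highest on chromosome 3 at 0.23 and lowest on chromosome 21 at −0.40. Without loci near exons the lowest was the Alu-rich chromosome 19, at −0.37 in MPS1i cells and −0.05 in DMSO cells.

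**Figure D2:**
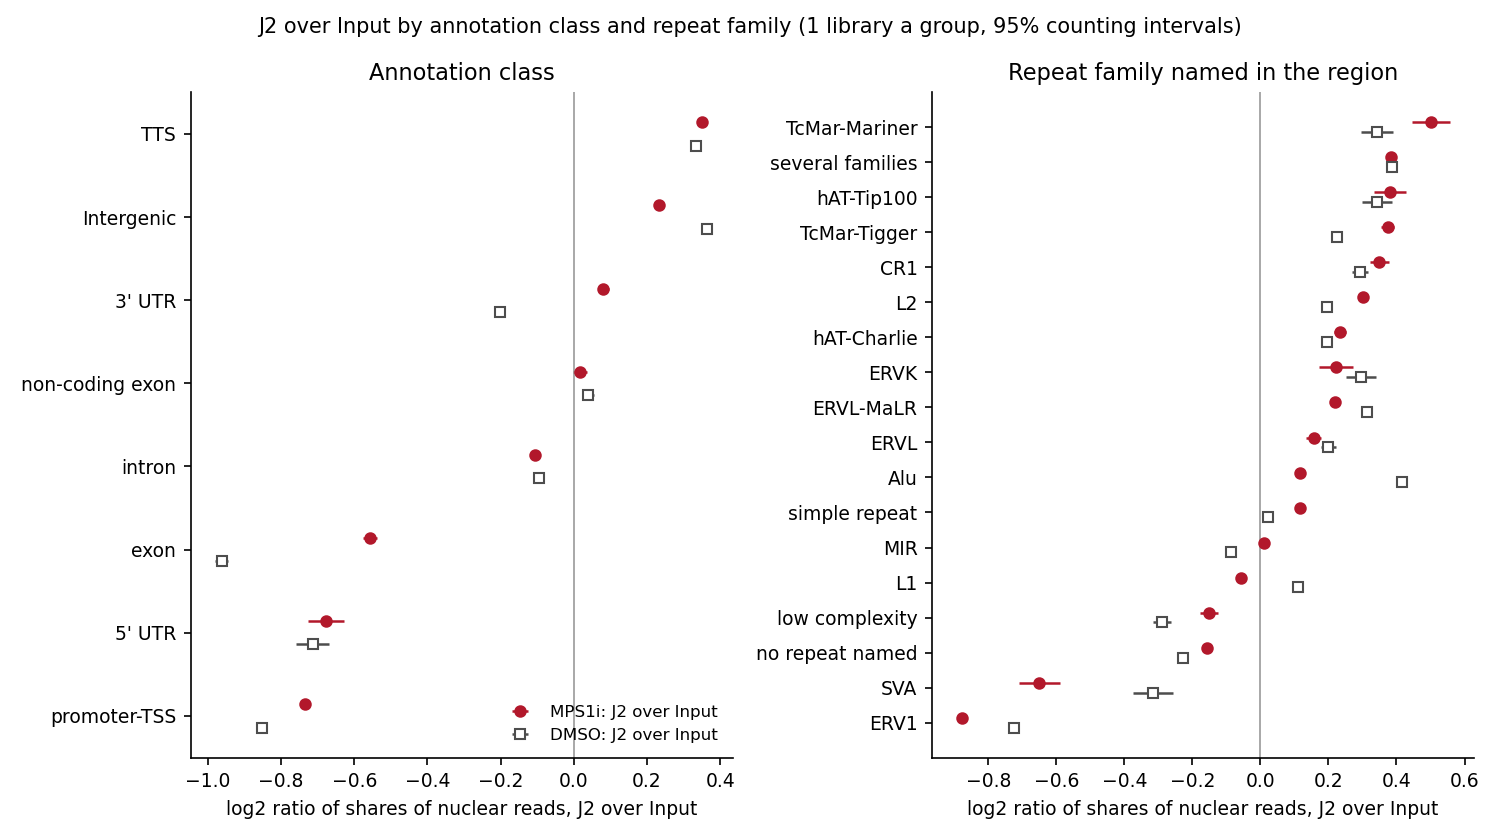
Log2 ratio of J2 over Input (x axis) for each annotation class and repeat family (y axis), with MPS1i and DMSO side by side and 95% counting intervals. Promoters (−0.73) and ERV1 (−0.88) are the lowest in MPS1i cells, and TTS (0.35) and TcMar-Mariner (0.50) the highest. All values are as deposited, and exon-clear values are not drawn.

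Repeat families followed a narrow range in MPS1i cells. As deposited, DNA transposons and ancient LINEs were highest on the J2 side, and ERV1 and SVA were on the Input side. TcMar-Mariner, a family of old DNA transposons, stood at 0.50 (9090 reads in MPS1i J2 and 3739 in MPS1i Input). It was followed by hAT-Tip100 (0.38), TcMar-Tigger (0.37), the ancient LINE families CR1 (0.35) and L2 (0.30), and hAT-Charlie (0.23). Regions holding repeats of several families stood at 0.38. The LTR families ERVK and ERVL-MaLR each stood at 0.22 and ERVL at 0.16, simple repeats at 0.12 and MIR, an ancient tRNA-derived SINE, at 0.01. Exon-clear, the highest named family was Alu at 0.39, ahead of TcMar-Tigger and TcMar-Mariner, each at 0.31. L2 stood at 0.16, ERVL-MaLR at 0.16, ERVL at 0.17 and CR1 at 0.07. ERVK stood at −0.04 (−0.09 to 0.02) exon-clear and at −0.53 over matched regions. Low-complexity sequence stood at −0.15, a sign that turned with mitochondrial reads kept, and regions naming no repeat stood at −0.16.

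ERV1, endogenous retroviruses related to gammaretroviruses, had 83378 reads in MPS1i J2 and 89272 in MPS1i Input, a log2 ratio of −0.88 (−0.89 to −0.87). It was −0.72 in DMSO cells. Outside genes ERV1 regions stood at −1.17 and on the sense strand of genes at −0.30. SVA, a young composite retroposon, stood at −0.65 in MPS1i cells and −0.32 in DMSO cells. ERV1 and SVA kept their sign in every alternative that was run. Per kilobase covered, every named family stood below 0, with Alu at −0.80, L2 at −0.40 and ERV1 at −1.62, while regions of several families stood at 0.29. The larger cover of the J2 table lowers these values too, so they are to be read against each other.

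Alu regions made up 8.02% of nuclear reads in MPS1i J2 and 7.40% in MPS1i Input, a log2 ratio of 0.12 (0.11 to 0.12) with 40486.6 kb covered in the J2 table and 21426.7 kb in the Input table. The ratio in DMSO cells was 0.42. Without loci near exons the Alu ratio was 0.39 in MPS1i cells and 0.59 in DMSO cells. Alu copies outside genes stood at 0.59, those on the antisense strand of genes at 0.24, and those on the sense strand at −0.04 as deposited and 0.38 exon-clear. By age, AluY, the youngest group, stood at 0.48, AluJ, the oldest, at 0.41, and AluS at 0.10 as deposited and 0.31 exon-clear.

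Part of the gap between both Alu readings lies in 1 region near an exon. FLAM_A, a free left Alu monomer, had 5248 reads in MPS1i J2 and 37305 in MPS1i Input. Of the Input reads, 34928 lay in the region chr9:128692981-128693173 on the plus strand, annotated to an intron of SET. With loci near exons left out FLAM_A had 4095 and 2109 reads, a log2 ratio of 0.13. Free Alu monomers together moved with it, at −2.03 as deposited and 0.25 exon-clear.

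L1, the LINE family that still moves in the human genome, had 609702 reads in MPS1i J2 and 369501 in MPS1i Input, a log2 ratio of −0.06 whose sign turned under each of the 4 other scalings. Its groups were ordered by age. L1HS and L1PA, the youngest, stood at −0.36, L1PB at −0.20 and the old L1M at 0.04, against −0.11, −0.01 and 0.10 in DMSO cells. The same order held without loci near exons, at −0.41, −0.25 and 0.01.

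Of 927 repeat subfamilies measured, leaving out simple repeats and low complexity, 78 were called higher in MPS1i J2 (8.41%) and 69 lower (7.44%). With simple repeats and low complexity kept in, 172 of 1272 were higher (13.5%) and 134 lower (10.5%), a split that became 255 and 101 with mitochondrial reads in the totals. Exon-clear and without simple repeats, 68 of 911 were higher (7.46%) and 64 lower (7.03%). MER70C, an ERVL element, had 242 reads in MPS1i J2 and 9 in MPS1i Input, 15.6-fold by share, against 243 and 44 in DMSO J2 and DMSO Input. The hAT transposon Charlie26a had 96 and 4 reads, and LTR16B had 390 and 34. A single region held 56.6% of the J2 reads of MER70C and 80.8% of those of LTR16B, so these are values of few loci. HERVK14-int, the body of a HERV-K group, had 2092 reads in MPS1i J2 and 267 in MPS1i Input, and 783 and 205 without loci near exons (log2 ratio 1.10). MER91C had 992 and 148 reads as deposited and 204 and 114 exon-clear (0.01). Charlie4, with 52 reads in MPS1i J2 and 1 in MPS1i Input (log2 ratio 4.35, 2.38 to 10.25), fell below 50 reads without loci near exons.

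The subfamilies lowest in MPS1i J2 were copies named for tRNAs, the adaptors of translation. tRNA-Ile-ATT had 0 reads in MPS1i J2 and 76 in MPS1i Input, at least 43.5-fold lower against a floor of 3 reads. tRNA-SeC(e)-TGA, the selenocysteine tRNA, had 1 read and 263 (log2 ratio −8.24, −14.13 to −6.33), and tRNA-Lys-AAG had 4 and 150. Of 10 names in the tRNA family that were measured, 9 were called lower. The tenth, LFSINE_Vert, is an ancient SINE and had 479 reads in MPS1i J2 and 226 in MPS1i Input (0.30). The other lowest names rest on single regions: LTR10F had 53 reads in MPS1i J2 and 594 in MPS1i Input, and LTR48B 739 and 4529, with 90.9% and 98.7% of the Input reads in 1 region each. Exon-clear, LTR10F had 53 and 54 reads (−0.86) and LTR48B 739 and 4528 (−3.45).

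Loci differed by the orientation of the Alu copies around them. This comparison, chosen after the data were seen, took the 12169 exon-clear loci of up to 2000 bp, of which 3306 (27.2%) were called higher in MPS1i J2 and 1562 (12.8%) lower. Loci with Alu regions on both strands within 1 kb had a median log2 ratio of 0.74 over 1996 loci, with 40.4% higher and 5.71% lower. Loci with an Alu region only on their own strand had a median of 0.37 (3757 loci, 28.3% higher and 10.7% lower). Loci with one only on the opposite strand also had a median of 0.37 (1493 loci, 25% and 10.4%), and loci with none had 0.12 (4923 loci, 21.6% and 18.1%).

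In DMSO cells loci with both orientations also came first and loci with none last, at medians of 1.04, 0.55, 0.41 and 0.11. In MPS1i cells the median for both orientations was 0.84 with a window of 500 bp and 0.63 with 2000 bp. Loci that themselves name no Alu but have Alu regions on both strands within 1 kb, on either side, had a median of 0.60 over 1127 loci. By place, loci with both orientations had medians of 0.65 on the sense strand of genes, 0.74 on the antisense strand and 0.82 outside genes, and loci with no Alu region 0.07, 0.09 and 0.27. With Alu copies taken from the Input table alone, the medians were 0.78 for both orientations (1397 loci) and 0.14 for none (5790 loci). The copies are those that have a region of up to 1000 bp in a table, whether or not that region held a read. Of all regions, 49.9% in the J2 table and 47.4% in the Input table held no read. Copies without a region in either table do not enter. A change of scaling moves all the medians of 1 treatment by the same amount and leaves their order. The medians of MPS1i and DMSO cells can move by different amounts, so the gap between treatments depends on the scaling.

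**Figure D3:**
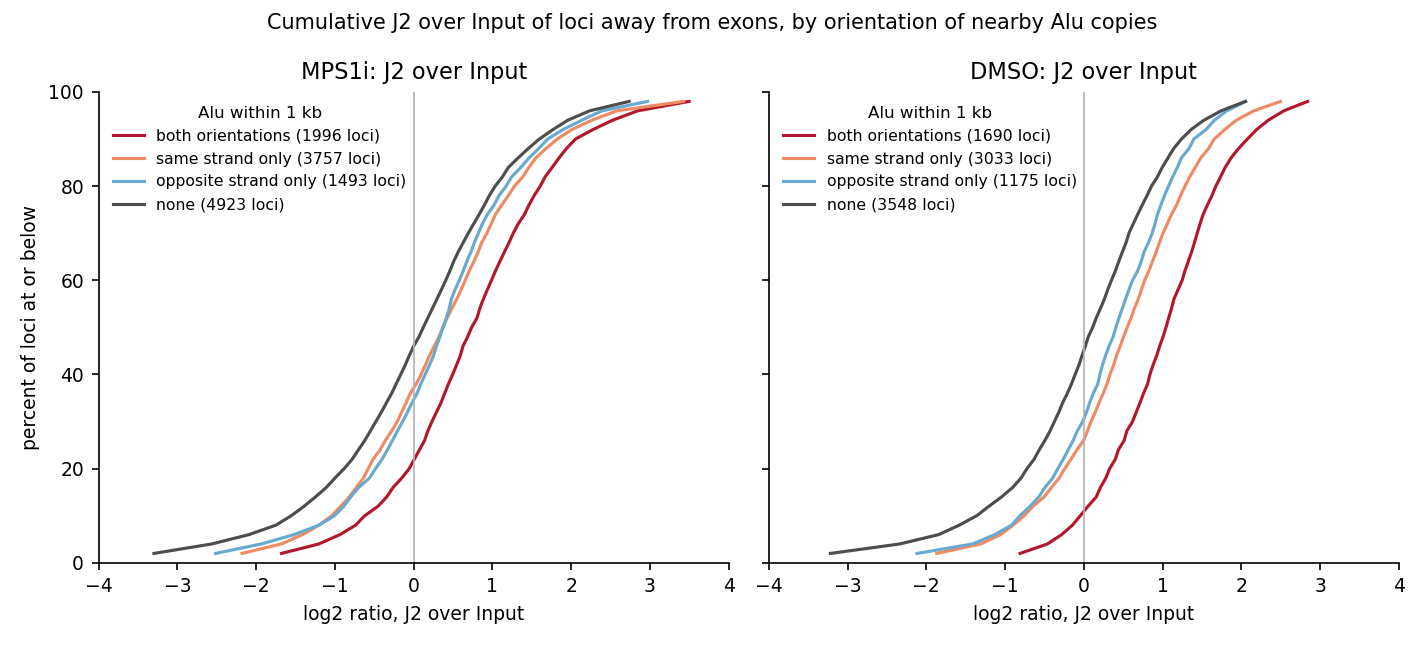
Cumulative percent of exon-clear loci of up to 2000 bp (y axis) at or below a log2 ratio of J2 over Input (x axis), for MPS1i and DMSO libraries, by whether Alu copies lie within 1 kb on both strands, on 1 strand or on none. The curve for both orientations lies to the right, with medians of 0.74 in MPS1i cells and 1.04 in DMSO cells.

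The loci named next are the extremes by rank among those with both orientations, not typical of them. The locus chr7:66156554-66157424 had 170 reads in MPS1i J2 and 1 in MPS1i Input, against 566 and 38 in DMSO J2 and DMSO Input. It was annotated as intergenic and lay on the antisense strand of a gene. Its name by the nearest transcription start is CRCP, which encodes an RNA polymerase III subunit. A locus past the end of TMEM127, a negative regulator of mTOR signalling, at chr2:96243356-96243594 had 65 and 0 reads, at least 12.6-fold higher. The loci near MARVELD1 (59 and 0 reads) and antisense to AMZ1 (58 and 0) were at least 11.4-fold and 11.3-fold higher. The antisense locus in IL17RB, a receptor for IL-17 family cytokines, had 149 reads in MPS1i J2 and 4 in MPS1i Input. Among loci with both orientations the lowest was chr1:1013355-1014699 on the strand opposite to ISG15, a ubiquitin-like protein made on interferon signalling, with 1 read in MPS1i J2 and 146 in MPS1i Input (log2 ratio −7.39, −13.28 to −5.47).

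Sums by gene name gave more genes on the Input side than on the J2 side. Of 18431 genes measured as deposited, 1555 were called higher in MPS1i J2 (8.44%) and 2624 lower (14.2%). The split depends on the scaling: it was 2847 higher and 1715 lower with mitochondrial reads kept, 1998 and 2177 with DESeq2 size factors, and 2046 and 2134 with upper-quartile factors. The last 2 moved the median gene up by 0.13 and 0.14 on the log2 scale from its main value of −0.06. Exon-clear, 1016 of 17778 genes were higher (5.71%) and 2253 lower (12.7%). Of the genes called higher as deposited, 1469 were still measured exon-clear and 860 of these were called higher again, against 1934 of 2359 among those called lower. In DMSO cells 1232 of 16624 genes were higher (7.41%) and 2861 lower (17.2%), and exon-clear 844 of 16019 were higher (5.27%) and 2582 lower (16.1%).

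Several of the widest gene sums were far smaller when each locus carried 1 name in both tables. MIR3648-2 had 3650 reads in MPS1i J2 and 0 in MPS1i Input, while its copy MIR3648-1 had 0 and 2275, and with 1 name per locus their log2 ratios were −0.06 and −2.01. BAGE3 had 1400 and 0 reads, while BAGE2 had 0 and 795, and BAGE3 stood at 0.11 with 1 name per locus. PRR20E had 4120 and 0 reads as deposited and 4060 and 1037 exon-clear (log2 ratio 1.14). ZNF664 (514 reads in MPS1i J2), PHOSPHO2 (381) and FECH (344) likewise have no region in the Input table, and OR2A1 (340) has only regions without an Input read. With 1 name per locus these stood at 0.97, 0.99, 1.41 and 0.98. RNA5-8SN5, a 5.8S ribosomal RNA gene, had 0 reads in MPS1i J2 and 1308 in MPS1i Input as deposited, but −3.01 with 1 name per locus and 279 and 1308 reads exon-clear (−3.06). The pseudogene BMS1P18 had 8125 and 58 reads as deposited, but 1.76 with 1 name per locus and 8109 and 1391 reads exon-clear (1.71). The readthrough gene CA5BP1-CA5B had 6599 reads in MPS1i J2 and 29 in MPS1i Input as deposited, and −0.15 with 1 name per locus. ATP5MF-PTCD1 had 3 and 1015 reads, and stayed at −5.54 with 1 name per locus and −1.29 exon-clear. Against a floor of 3 reads the names with 0 Input reads were at least 66.0-fold to 799-fold higher, and BAGE2 and MIR3648-1, with 0 J2 reads, at least 455-fold and 1303-fold lower, as bounds on the names and not on transcripts.

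Other leaders as deposited lie at exons or small RNAs. SNORD109B, a box C/D small nucleolar RNA gene (these guide RNA methylation), had 3202 reads in MPS1i J2 and 11 in MPS1i Input, 86.5% of the J2 reads in 1 region. With 1 name per locus it stood at 3.93, and exon-clear it had 441 and 121 reads (1.03). SET, which encodes an inhibitor of the phosphatase PP2A, had 254 reads in MPS1i J2 and 35138 in MPS1i Input, of which 99.4% lay in the FLAM_A region given above, and stood at −0.48 exon-clear. RPS14, a ribosomal protein gene, had 16 and 2653 reads, and 16 and 109 exon-clear (−3.56). C9orf78 had 5 and 1477 reads. The small nucleolar RNA genes SNORD24 (1 read and 843, log2 ratio −9.92, −15.81 to −8.02) and SNORA15 (7 and 1638) were on the Input side. C9orf78, SNORD24 and SNORA15 did not reach 50 reads exon-clear. Reads of these multi-copy RNAs can belong to other copies.

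Exon-clear, the names with the widest J2 excess were mostly those of noncoding genes. This reading leaves out loci within 20 bases of a same-strand exon. The values therefore sum introns, flanks and the opposite strand around the named genes, not the exons of their RNAs. MIR1247 had 52 reads in MPS1i J2 and 0 in MPS1i Input, at least 9.74-fold higher, but 1 and 5 in DMSO J2 and DMSO Input. MIR3675 had 537 and 43 reads, and CRCP 1153 and 117. LINC00960, a long intergenic RNA, had 9533 reads in MPS1i J2 and 1240 in MPS1i Input, with 88.6% of the J2 reads in 1 region. The name RNU6-9, of a U6 spliceosomal RNA gene, had 97 and 3 reads (log2 ratio 3.97, 2.59 to 6.49). Its regions in the J2 table numbered 235 and covered 28235 bp. SNORD15A (55 and 1), LOC102724159 (89 and 3), LMLN-AS1 (69 and 3) and C1orf220 (68 and 3) had as few Input reads, and KLHL23 had 160 and 9. The DMSO values were 95 and 21 for RNU6-9, 406 and 116 for KLHL23, and 40 and 38 for C1orf220.

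The genes with the widest Input excess, exon-clear, were led by abundant noncoding RNAs read on the strand opposite to them. RN7SL1, an RNA of the signal recognition particle, had 15 reads in MPS1i J2 and 1741 in MPS1i Input, 206-fold lower. RN7SL3 had 46 and 4187, and RN7SL2 49 and 1333. RN7SK had 89 reads in MPS1i J2 and 1691 in MPS1i Input, against 121 and 7952 in DMSO J2 and DMSO Input. The regions of RN7SL1, RN7SL2, RN7SL3 and RN7SK that carried these Input reads lie on the other strand from the genes. The protein-coding genes HIST1H2BO (a histone H2B, 56 and 963 reads), RAMP3 (a receptor partner, 40 and 807), RPLP0 (a ribosomal stalk protein, 13 and 211), RHCE (a blood group antigen, 8 and 157), DNAJC25-GNG10 (4 and 114) and HJV (hemojuvelin, 2 and 155) followed, each with 89.8% or more of its Input reads in 1 region.

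The 25 gene lists were read in both ways, and their medians are set against −0.06 for all genes measured as deposited and −0.09 exon-clear. The lists were chosen with earlier results of these data known. Their counts are to be read against 8.44% higher and 14.2% lower over all genes as deposited, and 5.71% and 12.7% exon-clear. The lower counts of transposon silencing, inverted Alu repeat, RNA sensor, inflammatory and NRF2-linked genes as deposited are near that share. Among nucleic acid lists, KRAB zinc fingers, repressors of transposons, had 7 higher and 0 lower of 22 measured (median 0.18), and 6 and 0 of 22 exon-clear (0.32). ZNF257 had 54 reads in MPS1i J2 and 2 in MPS1i Input (log2 ratio 3.67, 2.05 to 7.06), and ZNF765 had 396 and 52. In DMSO cells they had 133 and 26, and 582 and 123.

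Genes of transposon silencing and DNA methylation had 2 higher and 3 lower of 20 (median 0.44), and 2 and 4 of 19 exon-clear (0.14). TASOR, a subunit of the HUSH silencing complex, had 1402 reads in MPS1i J2 and 349 in MPS1i Input, and 875 and 248 exon-clear (0.99). ATF7IP, a partner of the methyltransferase SETDB1, had 1790 and 265 reads but 308 and 171 exon-clear (0.02). The histone chaperone DAXX had 23 and 63 reads, and the histone methyltransferase EHMT1 118 and 186.

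Genes of double-stranded RNA binding, editing and processing had 4 higher and 1 lower of 21 (median 0.18), and 1 and 0 of 21 exon-clear (−0.10). PRKRA, the activator of PKR, had 5915 reads in MPS1i J2 and 1346 in MPS1i Input and kept its excess exon-clear at 1.31. SUPV3L1, a mitochondrial RNA helicase, had 740 and 149 reads as deposited and −0.34 exon-clear, and XPO5, the exporter of pre-miRNAs, 82 and 215 and −0.12. RNA sensors and adaptors had 2 higher and 3 lower of 18 (median −0.01, whose sign turned under all other scalings), and 0 and 0 of 17 exon-clear (−0.16). TRIM25, the ubiquitin ligase of RIG-I signalling, had 5158 reads in MPS1i J2 and 392 in MPS1i Input, 92.5% of the J2 reads in 1 region, but 200 and 137 exon-clear. IKBKE had 355 and 89 reads, the antiviral protein gene ZC3HAV1 1416 and 3068, and IRF3 20 and 70, and exon-clear IKBKE and ZC3HAV1 stood at −0.05 and −0.27.

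Genes known for inverted Alu repeats in their 3' UTR had 2 higher and 4 lower of 27 (median 0.24), and 3 and 3 of 27 exon-clear (0.12). MDM2, the ubiquitin ligase of p53, had 14642 reads in MPS1i J2 and 3073 in MPS1i Input (log2 ratio 1.47), and 0.62 exon-clear. MRPS16, of the mitochondrial ribosome, had 138 and 27 reads and kept its excess exon-clear at 1.75. PAICS, a purine synthesis enzyme, had 574 and 1449 reads as deposited but stood at 1.44 exon-clear, with 95.2% of its Input reads in 1 region. FLNA, an actin crosslinker, had 139 and 1283.

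The interferon-stimulated genes, 42 listed, had 1 higher and 15 lower of 39 (median −0.47), and 0 and 11 of 38 exon-clear (−0.29), against 14.2% and 12.7% lower over all genes. SAMD9L, an antiviral effector, had 1455 reads in MPS1i J2 and 114 in MPS1i Input, but 192 and 78 exon-clear (0.46). IFITM3, which blocks viral entry, had 24 and 181 reads. The median of the list kept its sign under each of the alternatives that were run, and in DMSO cells the list had a median of −0.57.

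Antigen presentation genes had 0 higher and 5 lower of 14 (−0.83), and 0 and 6 of 14 exon-clear (−0.70), against the same shares. B2M, the invariant chain of MHC class I molecules, had 158 reads in MPS1i J2 and 332 in MPS1i Input, and TAPBP, which loads peptides on it, 114 and 196. Inflammatory and NF-kB genes had 0 higher and 2 lower of 15 (−0.10, turning sign with mitochondrial reads kept and with DESeq2 or upper-quartile factors), and 0 and 2 of 15 exon-clear (−0.15). The chemokine gene CCL5 had 41 and 90 reads, and NFKBIA, the inhibitor of NF-kB, 282 and 421.

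Of the cell cycle lists, mitosis and spindle checkpoint genes had 4 higher and 3 lower of 31 (0.26), and 4 and 2 of 31 exon-clear (0.07). CCNB1, the mitotic cyclin B1, had 189 reads in MPS1i J2 and 29 in MPS1i Input, and 1.01 exon-clear. ECT2, a regulator of cytokinesis, had 6009 and 1084 reads and 0.22 exon-clear. NDC80, a kinetochore subunit, had 51 and 233, and AURKB, a mitotic kinase, 43 and 79.

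DNA replication genes had 4 higher and 5 lower of 26 (−0.02, turning sign under all other scalings), and 1 and 3 of 24 exon-clear (−0.03). CCNE2, the cyclin E2 of S phase entry, had 1041 reads in MPS1i J2 and 220 in MPS1i Input, XRCC2, a recombination factor, 634 and 162, and the licensing factor gene CDT1 16 and 62. POLA1, a catalytic subunit of DNA polymerase alpha, had 23 and 145 reads as deposited, and 22 and 3 exon-clear, too few to be measured.

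The p53 targets had 1 higher and 4 lower of 20 (−0.47), and 0 and 5 of 20 exon-clear (−0.22). CDKN1A, the p21 inhibitor of cell cycle kinases, had 114 reads in MPS1i J2 and 656 in MPS1i Input, and 83 and 622 exon-clear, and BAX, which opens the mitochondrial outer membrane, had 63 and 117. Histones had 1 higher and 6 lower of 11 (−1.09), and 1 and 6 of 11 exon-clear (−1.01), where 14.2% and 12.7% of all genes were lower. HIST1H2AC was the one higher, with 498 reads in MPS1i J2 and 112 in MPS1i Input, while HIST1H1C had 54 and 102 and HIST1H2BK 113 and 207.

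Housekeeping genes had 0 higher and 9 lower of 20 (−0.83), and 0 and 7 of 20 exon-clear (−0.72), against 14.2% and 12.7% lower over all genes. GAPDH, of glycolysis, had 301 reads in MPS1i J2 and 2834 in MPS1i Input, and ACTB, beta-actin, 162 and 1321. The hnRNP and splicing factors had 2 higher and 11 lower of 28 (−0.54), and 0 and 9 of 28 exon-clear (−0.48). HNRNPL had 102 and 1246 reads and U2AF2 39 and 116, while HNRNPUL1 had 1983 and 212 as deposited and −0.89 exon-clear, and LUC7L3 540 and 74 and 0.83.

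Cytosolic ribosomal proteins had 2 higher and 9 lower of 21 (−0.59), and 2 and 5 of 17 exon-clear, where the median was 0.02. RPS18 had 115 reads in MPS1i J2 and 2834 in MPS1i Input but 14 and 5 exon-clear, too few to be measured, and RPSA had 50 and 10. RPL13A had 231 and 66. Stress and unfolded protein genes had 2 higher and 4 lower of 13 (−0.67), and 2 and 4 of 13 exon-clear (−0.55). ATF4, the transcription factor of the integrated stress response, had 513 and 1780 reads and PPP1R15A, its feedback phosphatase subunit, 76 and 205. ASNS, asparagine synthetase, had 750 and 175 reads and HSPA5, the ER chaperone BiP, 123 and 32.

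NRF2-linked detoxification genes had 2 higher and 3 lower of 20 (−0.21, turning sign with mitochondrial reads kept), and 1 and 1 of 19 exon-clear (0.04). GCLC, which makes the first step of glutathione synthesis, had 54998 reads in MPS1i J2 and 5426 in MPS1i Input, and 54308 and 10529 exon-clear (1.54, 1.51 to 1.57), with 70.3% of the J2 reads as deposited in 1 region. AKR1C2, an aldo-keto reductase, had 16194 and 4124 reads but 428 and 217 exon-clear. HMOX1, heme oxygenase, had 73 and 187, and UGDH 1223 and 1890. Autophagy and lysosome genes had 0 higher and 4 lower of 16 (−0.15, turning sign with mitochondrial reads kept), and 1 and 2 of 16 exon-clear (−0.14). SQSTM1, the autophagy receptor p62, had 1193 reads in MPS1i J2 and 2349 in MPS1i Input, and ATG16L1 83 and 211.

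The list of 25 long genes had 0 higher and 0 lower of 22 (−0.06, turning sign under all other scalings), and 0 and 0 of 22 exon-clear (−0.16). PARD3, a polarity protein gene, had 1799 reads in MPS1i J2 and 1070 in MPS1i Input (−0.03), and ZBTB20 1519 and 758 (0.22). Nuclear long noncoding RNAs had 0 higher and 1 lower of 10 (−0.30, turning sign with mitochondrial reads kept), and 0 and 1 of 10 exon-clear (−0.36), the one being NEAT1, the scaffold of paraspeckles, with 143 and 189 reads. The snoRNA host genes had 2 higher and 2 lower of 9 (−0.47), and 2 and 3 of 10 exon-clear (−0.28). SNHG12 had 122 and 30 reads, EPB41L4A-AS1 74 and 17, SNHG6 61 and 147, and TAF1D 49 and 95.

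Structured noncoding RNAs had 2 higher and 9 lower of 23 (−0.81), and 1 and 7 of 23 exon-clear (−0.63). SCARNA10, a Cajal body RNA, had 650 reads in MPS1i J2 and 103 in MPS1i Input and 1.10 exon-clear, while SCARNA5 had 285 and 47 as deposited but 18 and 34 exon-clear. By gene type, regions named for scRNA genes had 118 reads in MPS1i J2 and 7264 in MPS1i Input (−6.72), and 110 and 7261 exon-clear. Nearly all these Input reads lay in the regions opposite to RN7SL1, RN7SL2 and RN7SL3 given above. The value is therefore not one of the 7SL RNA itself. Regions named for snRNA genes had 4774 and 5451 reads (−0.97) and those for snoRNA genes 105904 and 85854 (−0.48). Pseudogenes stood at 0.27.

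The marker lists of cell types were small at this depth. Lung epithelium had 0 higher and 5 lower of 7 (−1.30), and 0 and 4 of 7 exon-clear (−1.18), with KRT7 at 38 and 156 reads. Fibroblast markers had 1 higher and 0 lower of 3 measured (0.21), and 1 and 0 of 3 exon-clear (0.14), the one being LUM with 56 and 12 reads. Leukocyte markers had 0 and 0 of 3 in both readings (−0.20, turning sign with mitochondrial reads kept, and −0.25 exon-clear), with CD14 at 81 and 26 reads and LYZ at 57 and 38.

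**Figure D4:**
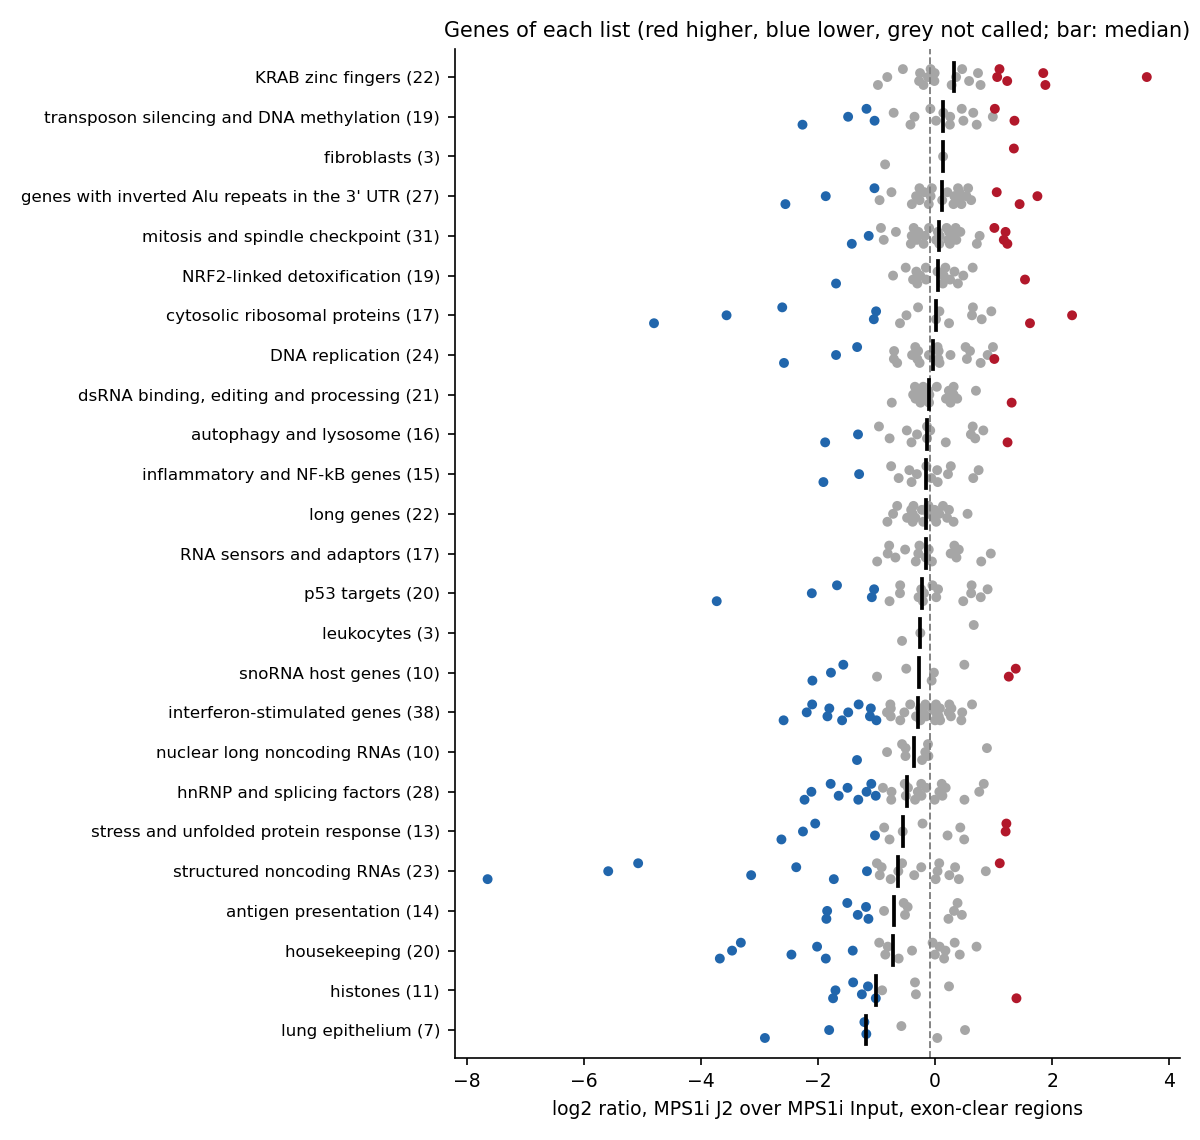
Log2 ratio of MPS1i J2 over MPS1i Input (x axis) for each measured gene of the 25 lists (y axis) in the exon-clear reading, with red points called higher, blue points called lower, grey points not called and a bar at each median. KRAB zinc fingers have the highest median of the lists shown (0.32) and lung epithelium the lowest (−1.18).

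Single regions could be compared where both tables held the same stretch. Of 159761 pairs of regions matched by at least 90% reciprocal overlap on the same strand, which held 20.5% of the reads of MPS1i J2 and 22.9% of those of MPS1i Input, 6297 were measured. Of these 1006 were higher in MPS1i J2 (16.0%) and 1416 lower (22.5%), or 1513 and 1067 with mitochondrial reads kept. Exon-clear, 679 of 4602 were higher (14.8%) and 1021 lower (22.2%). Lower regions were longer in the exon-clear set, at a median of 6844 bp against 1047 bp for higher regions and 1588.5 bp for those not called. Of the lower regions 66.1% lay antisense to a gene, against 40.2% of the higher ones and 50.2% of the 2902 not called. Sequence was at hand for 50 of the 1006 higher and 61 of the 1416 lower regions, with median GC contents of 39.1% and 53.2%, and 43.5% for 131 regions not called.

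All 6 of the highest matched regions touched an exon in the J2 table only. The region at chr5:77061231-77061703 in SNORA47, a box H/ACA small nucleolar RNA gene, had 10873 reads in MPS1i J2 and 9 in MPS1i Input, 703-fold higher. In ABCC2, an organic anion transporter, chr10:99805447-99805910 had 2111 and 1, a region in CPS1-IT1 had 1522 and 2, and regions in TOMM70, XPOT and EIF3L had 1051, 757 and 535 with 0 Input reads. Exon-clear, the highest was chr1:16683279-16684462 near MIR3675, with 377 reads in MPS1i J2 and 13 in MPS1i Input, 16.9-fold higher, followed by intergenic or antisense regions near LINC00942 (83 and 1), SPRTN (55 and 0), BEND3P3 (53 and 0) and IL23A (118 and 3), and an intronic region of IMPA1 (55 and 0).

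Among the lowest matched regions were those in AKR1C1 (20 reads in MPS1i J2 and 7216 in MPS1i Input), touching an exon, and on the strands opposite to RN7SL3 (23 and 4187), RN7SL1 (11 and 1738) and RN7SL2 (9 and 1304). A region in an intron of NFATC3 at MIR6773, which touched an exon in the Input table only, had 0 and 270, at least 155-fold lower. With loci near exons left out, RN7SK, RPPH1 and a long region antisense to MAP1LC3A, the autophagy protein LC3A, with 5 and 262 reads, took the places of those touching exons.

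Merging overlapping regions into loci, a comparison also chosen after the data were seen, measured more of the genome: 6041 of 22502 loci were higher in MPS1i J2 (26.8%) and 3997 lower (17.8%), and exon-clear 4017 of 16613 (24.2%) and 2512 (15.1%). The widest exon-clear loci on the J2 side had few Input reads in MPS1i cells. LINC01946 (chr2:31858794-31860946) had 134 reads in MPS1i J2 and 0 in MPS1i Input, at least 26-fold higher, against 275 and 18 in DMSO J2 and DMSO Input. A transcript end region of FUT11 (chr10:73776261-73776397) had 125 and 0, and a region near MIR3916 (chr1:247189725-247189775) had 114 and 0. On the Input side, a region near RHCE (chr1:25399220-25399331) had 0 and 141 reads, at least 80.8-fold lower, and the region holding tRNA-SeC(e)-TGA (chr19:45478559-45478696) carried all the reads of that name.

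Of the 4017 exon-clear loci called higher in MPS1i J2, 3383 were measured in DMSO cells, where 1739 were also called higher, 21 were called lower and 3064 had a ratio on the same side of 0. Over all exon-clear loci measured in DMSO cells, 24.0% were called higher and 14% lower, and the share on either side of 0 was not counted. Of the 2512 called lower, 1765 were measured in DMSO cells, where 1179 were also called lower and 35 higher. For genes the overlap was 631 of 1320 measured among those higher as deposited and 1421 of 2109 among those lower. Over all genes measured in DMSO cells, 7.41% were called higher and 17.2% lower. Exon-clear the overlap was 257 of 801 and 1029 of 1696, against 5.27% higher and 16.1% lower over all genes in DMSO cells.

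**Figure D5:**
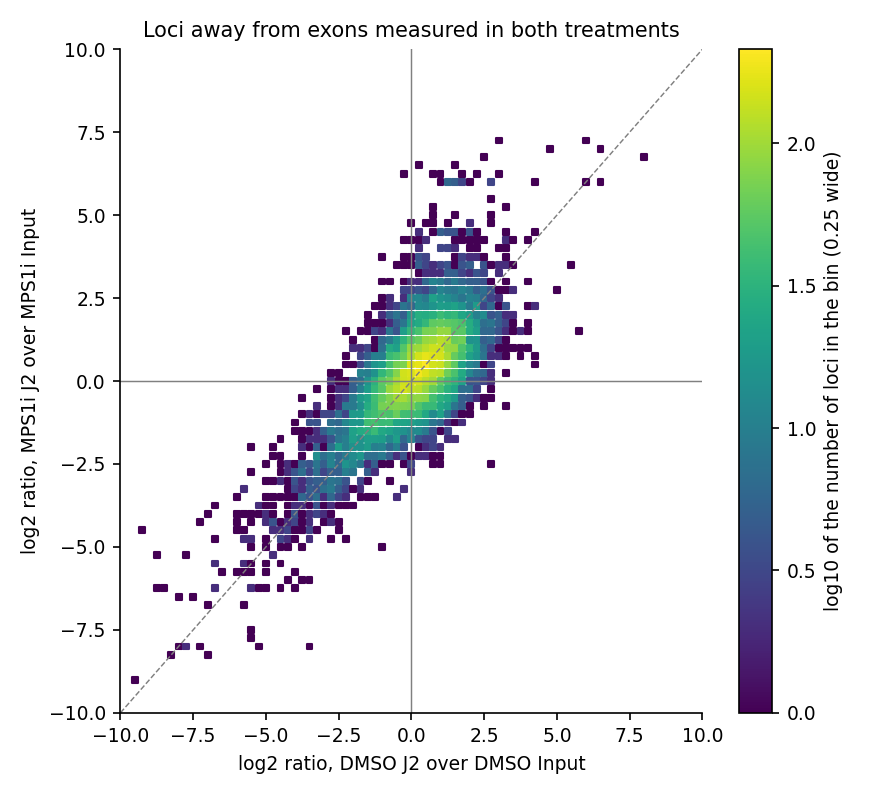
Log2 ratio of J2 over Input of exon-clear loci in MPS1i cells (y axis) against DMSO cells (x axis), for loci measured in both. Of the loci called higher in MPS1i J2 and measured in DMSO cells, 3064 of 3383 lie on the same side of 0, and of those called lower 1567 of 1765. The share of all loci on either side of 0 was not counted.

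The difference of J2 over Input between MPS1i and DMSO cells was taken per gene with counting intervals, where the J2 libraries together held at least 50 reads and the Input libraries at least 20. Of 17914 genes, 1828 were at least 2-fold higher in MPS1i cells (10.2%) and 931 lower (5.20%), or 1408 and 1272 with TMM factors and 1371 and 1307 with DESeq2 factors. Exon-clear, 1877 of 17522 were higher (10.7%) and 948 lower (5.41%). HEATR6 had 182 reads in MPS1i J2 and 10 in MPS1i Input, against 23 and 42 in DMSO J2 and DMSO Input, a log2 difference of 5.21 (4.05 to 6.36). LOC414300 had 50 and 7 against 3 and 17. MUL1 (32 and 0 against 46 and 33), KIF20A (29 and 0 against 112 and 88) and NDUFS7 (29 and 0 against 71 and 29) rest on 0 reads in MPS1i Input, so no fold is given for them. The lowest, REEP1 (77 and 37 against 55 and 0), LINC01149 (145 and 85 against 43 and 0), APOL4 (59 and 69 against 18 and 0), CD82 (54 and 71 against 13 and 0) and SLC26A3 (70 and 55 against 21 and 0), rest on 0 reads in DMSO Input. MPS1i Input held 3865362 reads in 484838 regions and DMSO Input 4829313 reads in 940740 regions, and the part of this in the difference was not tested.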

How the data were processed

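Stranded total RNA libraries of NCI-H1944 cells, 1 for each of 4 groups, were made with a SMARTer stranded kit and sequenced on a DNBSEQ instrument, per the labels' protocols. The submitters' processing notes name Trim Galore, cutadapt, Trimmomatic, STAR, featureCounts and HOMER. How the regions were defined is not given in the sources used here. The authors deposited raw counts per region, with a repeat name on the region's strand and an annotation of the hg38 build, per the file headers.

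Rows of chrM (20 in the J2 table, 11 in the Input table) were left out and the counts were scaled to the remaining sum of each library. Counts were summed by Gene Name, annotation class and repeat name. Regions with no Gene Name held 0.215% of the reads of MPS1i J2 and 0.181% of those of MPS1i Input. A ratio used a pseudocount of 0.5, a minimum of 50 counts over both libraries and a floor of 3 counts for a 0, and its 95% Clopper-Pearson interval came from scipy 1.17.1. A region or locus naming several repeats was given a family only where all of them share it. Single regions were compared by 90% reciprocal overlap on the same strand (bedtools 2.31.1). Exon distances and sequences came from GENCODE 29. With 1 library a group no test over replicates exists. The calls were tested on simulated Poisson counts with known folds. These lack the differences between the tables at exons and in gene names, and PCR copies, so they check the counting rule only. TMM factors of edgeR 4.0.16 and size factors of DESeq2 1.42.0 were alternatives only.

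Called items were ranked by the interval bound nearest to no change. The text names the 10 highest and 10 lowest genes, the 6 highest and 6 lowest matched regions and subfamilies (simple repeats and low complexity left out), and the 2 highest and 2 lowest called members of each list, or, where none was called, up to 2 with the most counts. A few items that this rule takes are not reported here. It also names the classes and families with at least 0.1% of the reads of either library and the 5 genes with the largest change against DMSO each way. The exon-clear, merged-locus, Alu-orientation and opposite-exon comparisons, and the printed J2-high loci, were added after seeing the data. The members and lists were chosen with earlier results of these data known.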

Additional observations from a re-analysis of the deposited data

Results flagged for a closer look

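A few results of MPS1i cells lay on the other side of 0 from DMSO cells, each with 1 library a group, so the differences were not tested. The 3' UTR class had a J2 over Input log2 ratio of 0.08 in MPS1i cells and −0.20 in DMSO cells, but the MPS1i value was −0.00 exon-clear, −0.03 over matched regions, −0.04 per kilobase covered and −0.47 with each region counted once. L1 regions had −0.06 in MPS1i cells and 0.11 in DMSO cells, and the MPS1i value turns sign under other scalings. Among genes measured in both treatments, 20 were called in opposite directions in MPS1i and DMSO cells as deposited, and 23 in the exon-clear reading (of 15738 and 15001 genes measured in both).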

How the results depend on the processing

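No paired analysis was possible because each group has 1 library, and none could be left out. Ratios within 0.31 of 0 on the lower side depend on whether mitochondrial reads stay in the totals. Depth limits single items: an item with 0 Input reads has only a lower bound.

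Genes higher in MPS1i J2 (1555) became 2847 with mitochondrial reads kept, 268 with each region counted at most once, 2337 with no minimum, 851 with a minimum of 200, 492 over matched regions alone and 1016 exon-clear. Genes lower (2624) became 1715, 127, 4218, 962 and 1363 under the first 5 of these. Of the calls, 37.2% were higher, against 62.4% with mitochondrial reads kept, 47.9% with DESeq2 factors, 48.9% with upper-quartile factors, 67.8% with each region counted once and 26.5% over matched regions. Subfamilies higher (172, with simple repeats) became 5 with each region counted once, 379 with no minimum, 259 with a minimum of 20, 77 with 200 and 38 over matched regions. Subfamilies lower (134) became 6, 541, 265, 49 and 83, and 87 with the repeat of the annotation column.

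Matched regions higher (1006) became 1513 with mitochondrial reads kept, 3073 with no minimum, 1876 with a minimum of 20, 371 with 200, 3677 at 50% overlap, 30 with identical ends, 6041 as merged loci and 4017 as exon-clear merged loci. Matched regions lower (1416) became 10081 with no minimum, 3367 and 252 with minimums of 20 and 200, 2912 at 50% overlap, 54 with identical ends, and 3997 and 2512 as merged loci. Counting each region once left no matched region measured. Genes with a higher J2 over Input in MPS1i than in DMSO cells (1828) became 211 with each region counted once, 2743 with no minimum, 674 with a minimum of 200 and 833 over matched regions. Those lower (931) became 152 with each region counted once, 415 with a minimum of 200 and 373 over matched regions.

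Annotation classes above 0 (4 of 8) became 1 with each region counted once, 2 over matched regions, 0 per kilobase and 2 exon-clear. Repeat families above 0 (12 of 16) became 7 over matched regions and 0 per kilobase. Lists with a median above 0 (6) became 14 with mitochondrial reads kept and 10 with DESeq2 or upper-quartile factors. Signs turned for MIR3648-2 (−0.06 with 1 name per locus, −0.12 exon-clear), CA5BP1-CA5B (−0.15 with 1 name per locus), Charlie4 (−0.77 with the annotation column), HERVK14-int (−0.25 with each region counted once), FLAM_A (0.29 without the 100 most-read regions, 0.06 with each region counted once, 0.13 exon-clear) and LTR48B (0.74, 0.33 and, with the annotation column, 0.25). For all of these the cause was not tested. The other values of these results, 89 in all for the counts and summaries, stayed within 1.5 times.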

Other observations

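Within ERV1, the summed reads and the typical subfamily of MPS1i J2 gave different values, and the subfamilies named here were chosen after their values were seen. The 229 ERV1 subfamilies measured had a median log2 ratio of 0.05, with 21 called higher and 26 lower, although the family's summed reads stood at −0.88. HERVH-int, the body of a retrovirus known for its transcripts in pluripotent cells, had 6576 reads in MPS1i J2 and 19538 in MPS1i Input (−2.35), against 8043 in DMSO J2 and 16380 in DMSO Input. Exon-clear it had 4790 and 15721 reads in MPS1i J2 and MPS1i Input (−2.55). LTR8 had 965 and 2631 reads, with 72.4% of the Input reads in 1 region. LTR12C, the long terminal repeat of HERV9, had 7886 and 6140 (−0.42), with 8048 and 3924 in DMSO J2 and DMSO Input.

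Satellite repeats, also named after their values were seen, differed among themselves. SATR2 had 202 reads in MPS1i J2 and 34 in MPS1i Input (1.77), SATR1 238 and 59 (1.22), and ALR/Alpha, the alpha satellite of centromeres, 1980 and 585 (0.98). MSR1 had 29 and 70 (−2.04), SST1 153 and 217 (−1.28) and BSR/Beta 75 and 99 (−1.18). SVA_E had 68 and 120 reads (−1.60) and SVA_D 1445 and 1632 (−0.96), while SVA_C had 468 and 202 (0.43).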
